A study of Oryza sativa with 5 samples.

Results

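Shanyou 63 (SY63) is a rice hybrid bred from the female parent ZS97 and the male parent MH63, all of the indica type. Transcript abundance in SY63 seedlings was set against that in ZS97 seedlings, over every gene with at least 1 tag in either library. These were 20783 of the 22546 genes with a tag in any of the 5 libraries of the study, and 18129 of them had tags in both SY63 and ZS97. A further 1703 genes had tags in SY63 only, and 951 had tags in ZS97 only. The labels of the SY63 and ZS97 libraries name no transgene, and how many seedlings were pooled per library is not given in the sources used here. The other 3 libraries, used here only for levels, came from MH63, from SY63 over-expressing the histone deacetylase gene OsHDT1 (FU) and from SY63 with an OsHDT1 RNAi construct (FR). All seedlings were 15 days old and were raised on 1/2 MS medium with 15 h of light at 30 °C and 9 h of dark at 25 °C. Each genotype had 1 library, so no spread between seedlings was measured, and every comparison below is between libraries.

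The method reads a short tag next to the last CATG site of each transcript, so that a count of tags stands for a count of transcripts and is not corrected for transcript length. Levels are given as tags, or as TPM, the deposited values scaled to the clean tags of each library. SY63 had 4857063 clean tags and ZS97 had 4957343, of which 69.9% in SY63 and 69.5% in ZS97 lay on genes. The depths differed little, and tag counts of a gene can be set side by side. A count of 0 allows up to 3 tags, or 0.618 TPM in SY63 and 0.605 TPM in ZS97. A gene was called higher or lower in SY63 when an exact counting test (Audic and Claverie) passed a false discovery rate of 0.001 and the TPM differed at least 2-fold. The direction of every ratio rests on the column names of the deposited tables. The SY63 counts in 4 tables and the ZS97 counts in 2 tables differed at 0 genes. Of 387 genes that spanned at least 10-fold over SY63, ZS97 and MH63 and reached 50 tags in the highest, SY63 held the middle level at 287, ZS97 at 71 and MH63 at 29. The 95% intervals given with log2 ratios cover counting error only, since each library is a single sample.

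First-generation hybrids often grow faster than their parents. Growth of a grass seedling rests on dividing cells at the shoot base and root tips, where cells copy their DNA, pack it with newly made histones and separate the copies on microtubules, and on the expansion of those cells as their walls are loosened and coated with wax and cutin. The gene descriptions cover each of these steps. In bulk seedlings, fewer cells of a type and less RNA per cell cannot be told apart.

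SY63 had 598 genes called higher than in ZS97, which is 2.88% of the genes tested, and 222 called lower, which is 1.07%. Higher calls thus made up 72.9% of all 820 calls. This lean depended on the 2-fold threshold: 2052 genes passed the false discovery rate whatever their ratio, 1101 of them higher and 951 lower. It also rests on the direction of the ratio. The paper reports fewer genes up-regulated than down-regulated in SY63 compared with ZS97 at the same thresholds, which is the opposite lean. Across 16312 genes that reached 10 tags in SY63 or ZS97, the log2 ratio had a median of 0.03. The genes called higher together held 2.82% of the clean tags in SY63 and 0.690% in ZS97, and those called lower held 0.421% in SY63 and 1.07% in ZS97. Most called genes were of low or middle abundance: 265 of the higher calls had 20 to 99 tags in both libraries together, and 257 had at least 100 but fewer than 500. The calls were more even among abundant genes. With at least 500 but fewer than 5000 tags, 34 genes were called higher and 26 lower, and with 5000 or more there were 2 and 2. With an assumed coefficient of variation of 0.2 between seedling samples, in place of counting error alone, 128 higher calls and 4 lower calls were left, and most functional groups below were left with few or none.

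**Figure D1:**
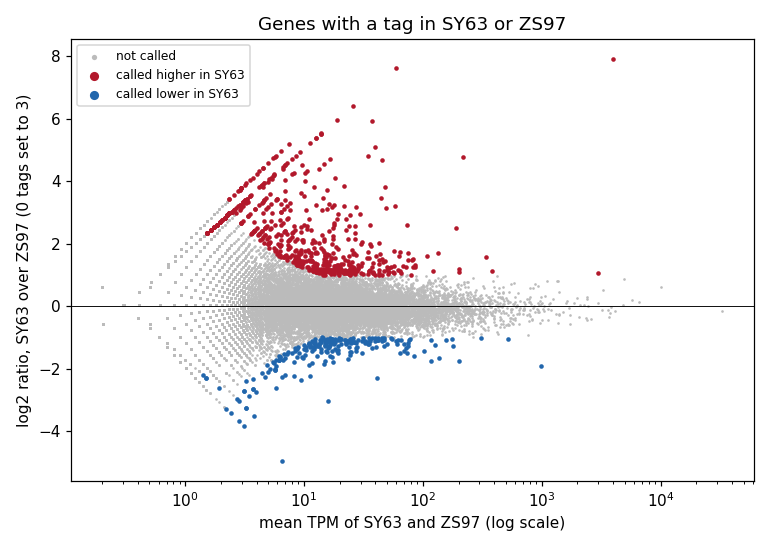
Log2 ratio of SY63 over ZS97 against the mean TPM of both libraries (log scale) for the 20783 genes with a tag, each point a gene and a count of 0 set to 3 tags. The 598 genes called higher (red) outnumber the 222 called lower (blue), and many of them lie at low levels.

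Many genes for copying DNA were called higher in SY63. Of 156 genes with a cell cycle or DNA replication description, 31 were called higher in SY63 and 1 lower, or 19.9% and 0.641% of the list, and the list's median log2 ratio was 0.46. That median was 0.22 over the members with at least 50 tags in 1 library, and 11 higher calls were left at the assumed variation of 0.2. The MCM proteins form the helicase that opens DNA at replication origins. MCM2 (LOC_Os11g29380) had 59 tags in SY63 against 7 in ZS97, MCM3 (LOC_Os05g39850) had 54 against 2, MCM4 (LOC_Os01g36390) had 49 against 3, and MCM5 (LOC_Os02g55410) had 31 against 6. These 4 subunits passed the call. MCM6 (LOC_Os05g14590) with 11 tags against 0 and MCM7 (LOC_Os12g37400) with 15 against 3 were not called, and MCM9 (LOC_Os06g11500), outside the core helicase, had 31 tags in SY63 and 34 in ZS97. A gene described as an MCM3 homolog (LOC_Os05g08100) had 29 against 24 and was not called. Summed over the 8 genes MCM2 to MCM9, the level was 52.3 TPM in SY63 and 11.1 TPM in ZS97. The same sum was 14.9 TPM in MH63, 36.3 TPM in FU and 36.7 TPM in FR.

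Subunits of DNA polymerase alpha, which starts each new strand, were called higher in 3 of 4 cases. The catalytic subunit POLA1 (LOC_Os01g64820) had 37 tags in SY63 against 4 in ZS97 (log2 ratio 3.24, interval 1.76 to 5.19). POLA2 (LOC_Os12g13950) had 18 tags in SY63 and POLA4 (LOC_Os05g29010) had 21, while neither had a tag in ZS97. POLA3 (LOC_Os07g22400), with 53 tags in SY63 and 42 in ZS97, was not called. Of polymerase epsilon, which extends the leading strand, POLE2A (LOC_Os05g06840) was called with 17 tags in SY63 and 0 in ZS97. The 5 polymerase delta genes were not called, and the subunit described as POLGAMMA2 (LOC_Os04g54500) had 215 tags in SY63 against 329 in ZS97. The polymerase genes that were called higher thus belonged to alpha and epsilon, and their calls were lost at the assumed variation of 0.2. Summed over the 12 polymerase subunit genes, the level was 114 TPM in SY63 and 106 TPM in ZS97.

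Proteins that work beside the polymerases showed the same split between members. Replication protein A covers single-stranded DNA, and its subunit RPA1B (LOC_Os03g11540) had 94 tags in SY63 against 6 in ZS97, whereas RPA1A (LOC_Os02g53680) had 88 against 72 and was not called. PCNA (LOC_Os02g56130), the sliding clamp of the polymerase, had 111 tags in SY63 against 44 in ZS97. Ribonucleotide reductase makes the building blocks of DNA, and 2 of its 4 genes were called higher: the large subunit LOC_Os06g07210 had 33 tags in SY63 against 7 in ZS97, and the small chain LOC_Os06g03720 had 47 against 10. DNA topoisomerase 2 (LOC_Os02g47150), which untangles the copies, had 76 tags in SY63 against 4 in ZS97. The gene called lower in this list was OsTOP6B (LOC_Os09g10770), a topoisomerase 6 subunit, with 79 tags in SY63 against 168 in ZS97. At the assumed variation of 0.2, the calls of RPA1B and topoisomerase 2 were left. Those of PCNA, the named reductase genes and OsTOP6B were lost.

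**Figure D2:**
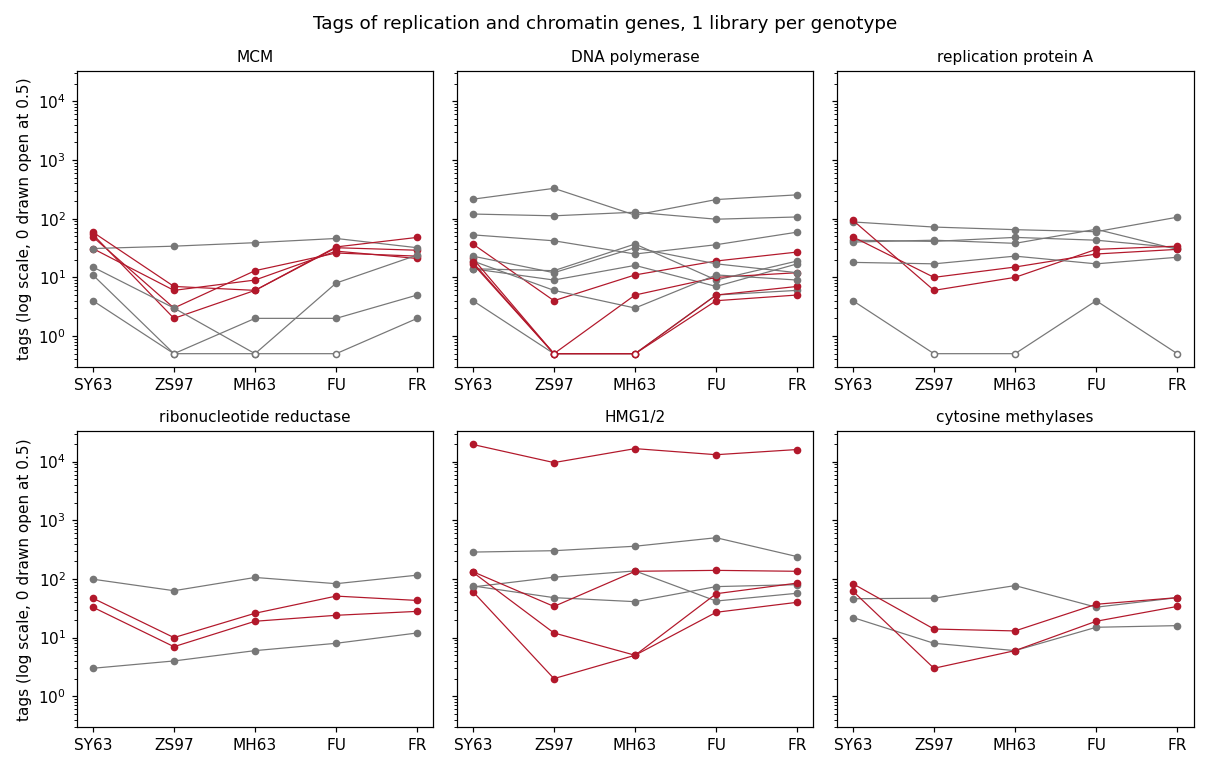
Tags (log scale) in SY63, ZS97, MH63, FU and FR for every gene of 6 groups, with red for genes called higher in SY63 than in ZS97, grey for the others and open points for 0 tags. Lines join the values of 1 gene; the called MCM genes have 31 to 59 tags in SY63 and 2 to 7 in ZS97.

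Core histones, the spools that DNA is wound on, had the largest share of calls among the lists of at least 30 genes. Of 34 histone genes with a tag, 13 were called higher in SY63 and 0 lower, or 38.2% of the list, and the median log2 ratio was 1.01. At the assumed variation of 0.2, 8 of these calls were left. A histone H3 gene, LOC_Os06g06510, had 424 tags in SY63 and 17 in ZS97 (log2 ratio 4.67, interval 3.97 to 5.46). A nearby H3 gene, LOC_Os06g06460, had 68 tags in SY63 and 0 in ZS97, so it was at least 23.1-fold higher. Histone H3.3a (LOC_Os04g37780) had 438 tags in SY63 against 32 in ZS97, with 1861 in MH63. The core histone gene LOC_Os08g38300 had 511 tags in SY63 against 56 in ZS97. Histone genes resemble each other closely, and tags shared by several genes were removed before counting, so the division of tags among copies is uncertain. The sum over the list was 3269 TPM in SY63 and 2497 TPM in ZS97, beside 4489 TPM in MH63, 2383 TPM in FU and 3126 TPM in FR.

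Among other chromatin genes the calls fell on DNA-bending and DNA-methylating proteins. Of 103 chromatin regulator genes, 6 were called higher and 0 lower, and their median log2 ratio of 0.04 was close to that of all genes. The 6 were 4 of the 7 HMG1/2 genes, which encode small proteins that bend DNA, and 2 of the 4 genes for C-5 cytosine DNA methylases, which copy or add methyl marks. The most abundant HMG1/2 gene, LOC_Os06g51220, had 19577 tags in SY63 against 9622 in ZS97. LOC_Os08g01100, another HMG1/2 gene, had 130 against 12. The methylase gene LOC_Os10g01570 had 62 tags in SY63 against 3 in ZS97, and LOC_Os07g08500 had 83 against 14. Outside the list, a FACT complex subunit, SPT16 (LOC_Os04g25550), which helps polymerases pass nucleosomes, had 177 against 59. OsHDT1 itself (LOC_Os05g51830, described as ZOS5-12) had 428 tags in SY63 and 304 in ZS97 and was not called, beside 2633 in MH63, 7590 in FU and 142 in FR.

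Part of the machinery that separates chromosomes was called higher in SY63, although most genes of each group were not called. Kinesins are motors that walk on microtubules, and 10 of 37 genes with a kinesin motor description were called higher and 0 lower. LOC_Os03g02290 had 90 tags in SY63 against 8 in ZS97, and LOC_Os12g39980 had 30 against 0. Tubulins build the microtubules: all 16 tubulin genes had a log2 ratio above 0, with a median of 0.90, and 6 of them were called. Together they reached 1947 TPM in SY63 and 1159 TPM in ZS97. The most abundant tubulin gene, LOC_Os11g14220, had 3548 tags in SY63 against 2164 in ZS97 and did not pass the 2-fold threshold, while LOC_Os02g07060 had 481 against 146. Of 14 microtubule associated proteins 5 were called higher, among them LOC_Os01g49200 with 141 tags in SY63 and 11 in ZS97.

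Regulators of division followed. Cyclins switch on the kinases that drive the cycle, and 10 of 63 genes described by that word were called higher and 0 lower. LOC_Os06g51110 had 94 tags in SY63 against 14 in ZS97, and LOC_Os04g47580 had 42 against 2. The kinase CDKB2-1 (LOC_Os08g40170), a plant kinase of mitosis, had 62 tags in SY63 against 6 in ZS97, and an Aurora-like kinase (LOC_Os01g09580) had 91 against 11. Of 33 genes described by condensation, segregation, cohesion, kinetochore or checkpoint words, 7 were called higher and 0 lower. MAD2 (LOC_Os04g40940), which holds mitosis until chromosomes are attached, had 22 tags in SY63 and 0 in ZS97, and BUB1 (LOC_Os07g32480), of the same checkpoint, had 52 against 11. Single genes of the groups in this and the preceding paragraphs were mostly chosen after their values were seen.

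Levels in the remaining libraries are given side by side with no comparison. The cell cycle and DNA replication list summed to 2373 TPM in SY63 and 1964 TPM in ZS97, and to 1966 TPM in MH63, 2249 TPM in FU and 2385 TPM in FR. Of its 162 genes, 9 were at 0 tags in SY63 and 29 in ZS97, and 28 were at 0 in MH63 and 12 in each of FU and FR. The kinesin motors summed to 571 TPM in SY63 and 381 TPM in ZS97, and to 377 TPM in MH63, 561 TPM in FU and 566 TPM in FR.

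Genes of the cell wall and its loosening were called higher more often than all genes. Of 160 cell wall polysaccharide and expansin genes, 14 were called higher in SY63 and 2 lower, or 8.75% and 1.25%, with a median log2 ratio of 0.44. The assumed variation of 0.2 left 1 of the higher calls and 0 of the lower. Glycosyl hydrolases of family 16, which cut and rejoin wall glucans, made up 4 of the higher calls, and LOC_Os06g48160 had 429 tags in SY63 against 201 in ZS97. Pectinesterase LOC_Os04g46740, which modifies pectin, had 268 against 105. Expansins loosen walls as cells enlarge: 3 of 26 were called higher, among them LOC_Os03g44290 with 61 tags in SY63 and 14 in ZS97, and the beta-expansin LOC_Os09g29690 was called lower with 8 against 50. Polygalacturonase inhibitors, which protect pectin from fungal enzymes, gave 3 more higher calls, among them LOC_Os07g38130 with 243 against 60. CSLD4 (LOC_Os12g36890), a cellulose synthase-like protein, had 47 tags in SY63 against 6 in ZS97. The sum of the list was 4284 TPM in SY63 and 3581 TPM in ZS97.

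Lipid genes had more higher than lower calls. Among 75 lipid and fatty acid synthesis genes 7 were called higher and 0 lower (9.33% of the list), and the median log2 ratio was 0.15, or 0.05 over members with at least 50 tags. Of the 7, 1 was left at the assumed variation of 0.2. By description, 4 were 3-ketoacyl-CoA synthases, the enzymes that lengthen fatty acids for wax; LOC_Os06g14810 had 156 tags in SY63 against 53 in ZS97. An acyl-desaturase (LOC_Os08g10010) had 152 against 17. GDSL lipases, a family that includes cutin-forming enzymes, had 8 of 74 genes called higher and 0 lower with a median log2 ratio of 0.67, and LOC_Os05g34700 had 155 tags in SY63 against 6 in ZS97. Lipid transfer proteins, which carry lipids outside the cell, had 6 of 76 called higher and 2 lower, of which 3 and 0 were left at that variation. LTPL16 (LOC_Os01g60740) had 238 tags in SY63 against 27 in ZS97, while LTPL118 (LOC_Os03g50960) had 4 against 30.

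Gibberellin is a hormone of stem and leaf elongation. Of 62 genes with gibberellin or ent-kaurene words in their description, 8 were called higher and 0 lower (12.9% of the list). Of these, 1 was left at the assumed variation of 0.2. The GASR genes, described as gibberellin-regulated, made up 5 of the 8. All 8 GASR genes with a tag had a log2 ratio above 0, with a median of 1.41. GASR4 (LOC_Os04g39110) had 145 tags in SY63 against 26 in ZS97, and GASR10 (LOC_Os09g24840) had 44 against 5. The other 3 included the receptor-like GID1L2 (LOC_Os09g28690) with 76 against 23 and gibberellin 2-beta-dioxygenase 1 (LOC_Os05g11810), which inactivates the hormone, with 380 against 185. The last, LOC_Os02g36210 with 18 against 0, is described as an ent-kaurene synthase, and its part in gibberellin synthesis was not tested. LOC_Os06g03710, outside the list, had 39 tags in SY63 against 2 in ZS97. Its putative description is DELLA protein SLR1, and whether it is that gene was not tested. The core histone and cell cycle lists, the markers set for dividing cells, also had more higher than lower calls, like the wall, lipid and gibberellin lists, and their part in these results was not tested.

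**Figure D3:**
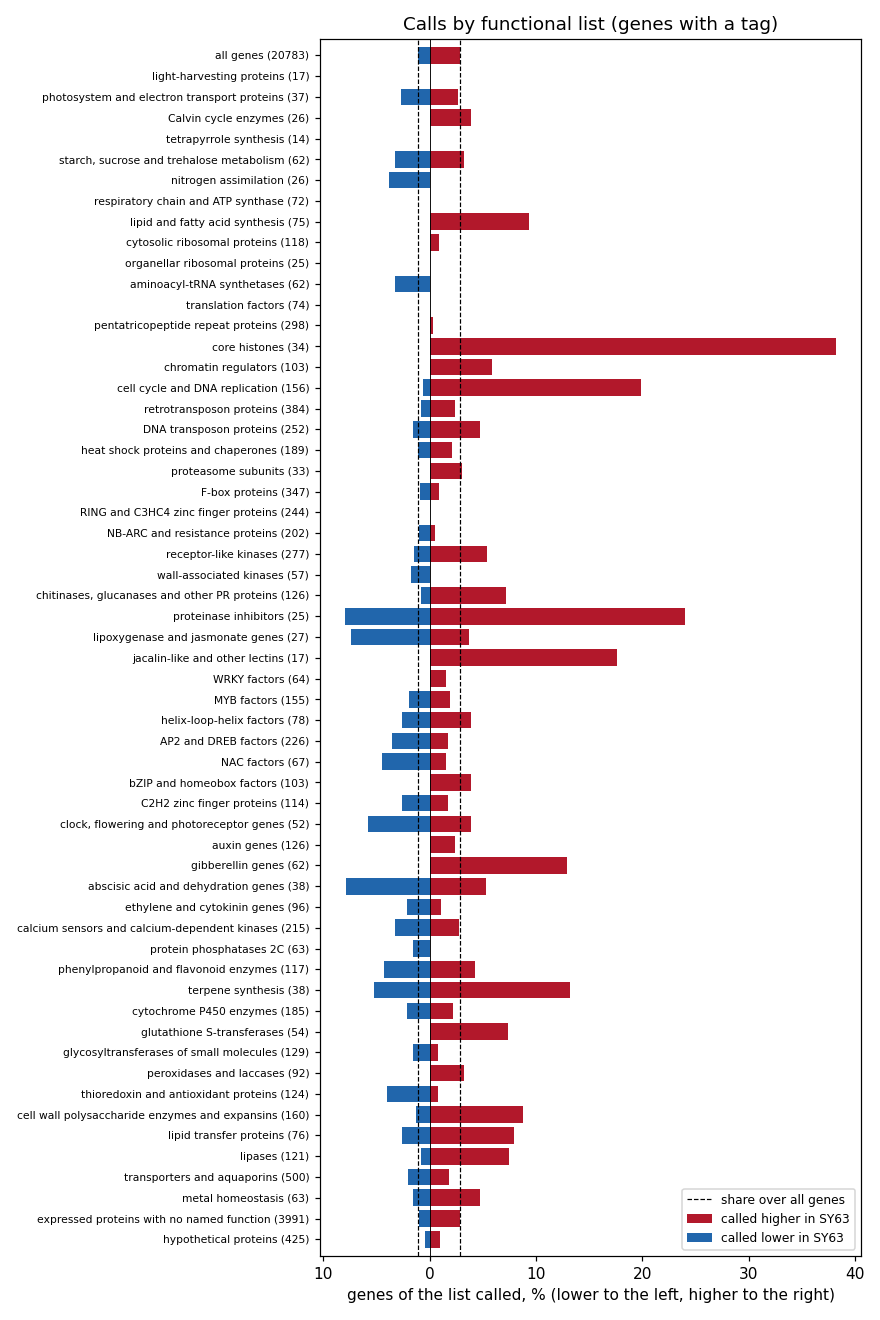
Share of the genes of each functional list (number of genes with a tag in brackets) called higher (red, to the right) or lower (blue, to the left) in SY63 than in ZS97, with dashed lines at 2.88% and 1.07%, the shares over all genes. Core histones (38.2% higher) and cell cycle genes (19.9% higher) stand out among the lists of at least 30 genes.

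Defence genes moved in both directions and by single large steps. Proteinase inhibitors, which block the digestive enzymes of insects, had 6 of 25 genes called higher and 2 lower, with 3 and 0 left at the assumed variation of 0.2. The inhibitor I genes LOC_Os12g36220 and LOC_Os12g36210 had 617 and 558 tags in SY63 against 103 and 174 in ZS97. BBTI8 (LOC_Os01g03680) had 133 tags in SY63 against 3 in ZS97, whereas BBTI2 (LOC_Os01g03320), also a Bowman-Birk inhibitor, had 260 against 904. Jacalin-like lectins bind sugars, and 3 of 17 lectin genes were called higher. LOC_Os12g14440 had 2063 tags in SY63 and 76 in ZS97 (log2 ratio 4.79, interval 4.46 to 5.14), beside 48 in MH63, 7585 in FU and 1636 in FR. A lipoxygenase gene (LOC_Os03g52860), of the pathway that leads to jasmonate, had 136 tags in SY63 and 0 in ZS97, at least 46.3-fold higher, with 5 in MH63, 853 in FU and 44 in FR.

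Receptor-like kinases pass signals from the cell surface, and 15 of 277 were called higher and 4 lower (5.42% and 1.44%), with 4 and 0 left at the assumed variation of 0.2. The neighbouring DUF26 kinase genes LOC_Os07g43560 and LOC_Os07g43570 had 255 and 135 tags in SY63 against 34 and 0 in ZS97. A gene described as a BRI1-associated receptor kinase (LOC_Os06g07070) was called lower with 15 tags in SY63 and 78 in ZS97. Pathogenesis-related proteins had 9 of 126 called higher and 1 lower, with 1 and 0 left at that variation, among them a thaumatin (LOC_Os01g62260) with 427 against 128. The SCP-like protein gene LOC_Os07g03730 had 42 tags in SY63 and 0 in ZS97, with 1550 in MH63, 478 in FU and 32 in FR. Intracellular immune receptors of the NB-ARC class had 1 of 202 called higher and 2 lower (0.495% and 0.990%), against 2.88% and 1.07% over all genes. The lower share was thus close to that over all genes. Of the 202 genes, 96 had enough tags to enter the list's median.

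Transcription factors of the AP2 class, whose DREB members act in responses to cold and drought, had more lower than higher calls. The list, matched by words, held 226 genes, of which 4 were called higher and 8 lower (1.77% and 3.54%), but the letters of 1 word also matched unrelated descriptions such as superfamily. With that word matched only at the start of a word, a choice made after the genes were seen, 87 genes were left with 3 called higher and 6 lower (3.45% and 6.90%). In the wider list 1 higher and 3 lower calls were left at the assumed variation of 0.2. The gene with the most tags among the dehydration-responsive element-binding (DREB) proteins, LOC_Os09g35010, had 68 tags in SY63 against 339 in ZS97 (log2 ratio -2.29, interval -2.69 to -1.91). Its neighbour LOC_Os09g35020, described as an AP2 domain protein, had 2 against 63. The 5 DREB genes had log2 ratios between -3.03 and -0.91, 2 of them were called, and together they reached 18.1 TPM in SY63 and 83.5 TPM in ZS97. In the other libraries the sum was 7.57 TPM in MH63, 22.2 TPM in FU and 19.4 TPM in FR. Other AP2 genes called lower were LOC_Os06g07030 with 17 tags in SY63 against 142 in ZS97 and LOC_Os09g11480 with 1656 against 3464, and LOC_Os06g40150 was called higher with 194 against 84.

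Some calcium sensors and ZIM domain genes were called lower, by smaller steps, and most members of both families were not called. Calmodulin-like (OsCML) proteins bind calcium released by touch, cold or wounding: 5 of 23 genes with a tag were called lower and 0 higher. OsCML18 (LOC_Os05g13580) had 104 tags in SY63 against 233 in ZS97, OsCML8 (LOC_Os10g25010) had 98 against 226, and OsCML16 (LOC_Os01g04330) had 67 against 170. OsCML7 (LOC_Os08g02420) went the other way with 180 against 107 and was not called. ZIM domain proteins, many of which repress jasmonate responses, had 2 of 8 called lower and 0 higher, among them LOC_Os03g08330 with 147 tags in SY63 against 318 in ZS97. In the wider calcium list of 215 genes 6 were called higher and 7 lower (2.79% and 3.26%), against 2.88% and 1.07% over all genes. The assumed variation of 0.2 left 1 and 0 of them.

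**Figure D4:**
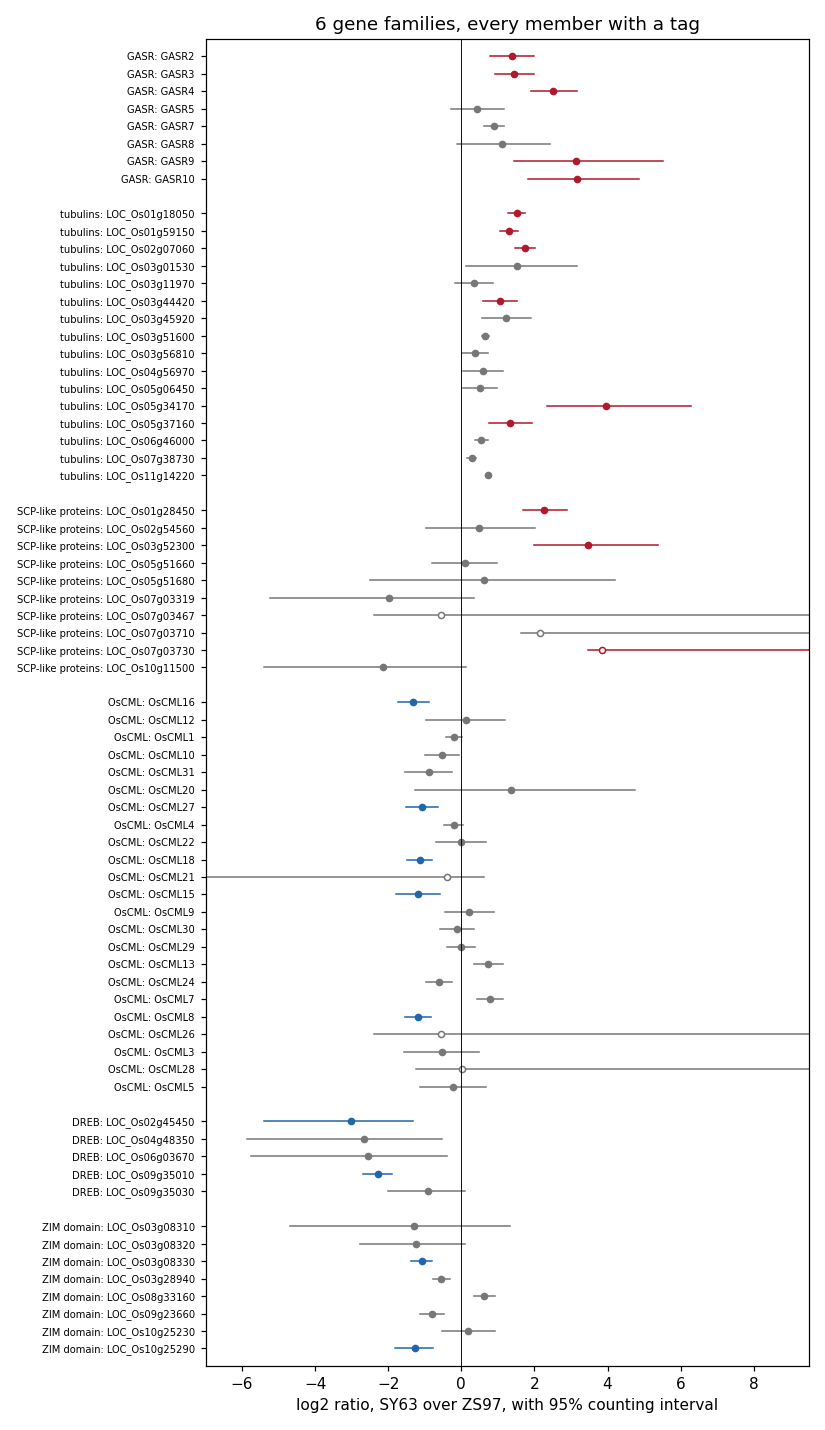
Log2 ratio of SY63 over ZS97 with its 95% counting interval for every gene with a tag in 6 families, red for genes called higher, blue for genes called lower and open points for ratios that are bounds because 1 library had 0 tags. The GASR and tubulin genes all lie above 0, and the 5 DREB genes all lie below 0.

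Genes of light and time included both directions. Of 52 clock, flowering and photoreceptor genes, 2 were called higher and 3 lower (3.85% and 5.77%), and the median log2 ratio was -0.22. Over all genes the shares were 2.88% and 1.07%. The CCT motif gene LOC_Os02g05470, of a family of flowering regulators, had 61 tags in SY63 against 182 in ZS97. The B-box zinc finger genes LOC_Os04g41560 and LOC_Os09g35880, of a family that acts in light signalling, had 369 and 69 tags in SY63 against 892 and 150 in ZS97. Phytochrome C (LOC_Os03g54084), a red light receptor, had 155 against 73, and a flowering promoting factor-like gene (LOC_Os04g21350) had 236 against 60. A gene described as phytochrome-interacting factor 4 (LOC_Os03g56950), outside the list, had 72 against 164. NAC factors, which act in stress and ageing, had 1 of 67 called higher and 3 lower (1.49% and 4.48%), with a median log2 ratio of -0.32. At the assumed variation of 0.2, 0 calls were left in the clock list and 0 among the NAC factors.

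Protective proteins had more lower than higher calls, while calls in specialised metabolism went both ways. Thioredoxin and antioxidant genes had 1 of 124 called higher and 5 lower (0.806% and 4.03%), of which 0 were left at the assumed variation of 0.2. They included 2 copper/zinc superoxide dismutases, which remove superoxide: LOC_Os08g44770 had 247 tags in SY63 against 526 in ZS97, and LOC_Os03g11960 had 123 against 269. A thioredoxin gene (LOC_Os03g55820), which passes electrons to other proteins, had 549 against 1172, and the glutaredoxin gene OsGrx_S2 (LOC_Os05g48930) had 179 against 424. Phenylpropanoid enzymes had 5 called higher and 5 lower of 117 (4.27% each), and those named here were among the lower. Phenylalanine ammonia-lyase LOC_Os04g43800, of the entry step, had 38 tags in SY63 against 134 in ZS97, and a leucoanthocyanidin reductase (LOC_Os04g53800) had 19 against 92. Of the 7 ammonia-lyase genes it was the 1 called, and their sum was 677 TPM in SY63 and 603 TPM in ZS97. The plastid isoprenoid enzyme 1-deoxy-D-xylulose 5-phosphate reductoisomerase (LOC_Os01g01710) had 319 tags in SY63 against 1027 in ZS97.

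Sterols, which stabilise membranes, are made from the same isoprenoid units, and 3 genes of their synthesis were called higher among the 38 terpene genes. In all, 5 of the 38 were called higher and 2 lower (13.2% and 5.26%), against 2.88% and 1.07% over all genes. Most members still lay below 0: 18 of the 28 that reached 10 tags in SY63 or ZS97, with a median log2 ratio of -0.20. Squalene synthetase (LOC_Os03g59040) had 113 tags in SY63 against 46 in ZS97, cycloartenol synthase (LOC_Os11g08569) had 39 against 10, and cycloartenol-C-24-methyltransferase 1 (LOC_Os07g10600) had 809 against 375. Glutathione S-transferases, which tag toxic compounds for removal, had 4 of 54 called higher and 0 lower. Of these LOC_Os10g39740 had 255 tags in SY63 against 89 in ZS97, and the neighbours LOC_Os03g04220 and LOC_Os03g04240 had 217 and 182 against 84 and 85. Over the transferases as a whole, the median log2 ratio was -0.01, or 0.22 over those with at least 50 tags. Among the terpene genes and the transferases 0 calls were left at the assumed variation of 0.2.

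Auxin, a hormone of patterning and growth, had 3 of 126 genes called higher and 0 lower. The higher share of 2.38% was close to the 2.88% over all genes. The list's median log2 ratio was 0.17, against 0.03 over all genes, and 55 of the 89 genes in that median lay above 0. OsIAA30 (LOC_Os12g40890), a repressor of auxin responses, had 312 tags in SY63 against 146 in ZS97. Cytokinin promotes division, and a cytokinin dehydrogenase gene (LOC_Os01g71310), for the enzyme that breaks it down, had 14 against 47. Its list of 96 ethylene and cytokinin genes had 1 called higher and 2 lower (1.04% and 2.08%). Nitrate reductase (LOC_Os02g53130), of the first step of nitrate use, had 5 tags in SY63 against 32 in ZS97. It was the 1 call among 26 nitrogen assimilation genes, whose median log2 ratio was -0.03. An HSF-type DNA-binding gene (LOC_Os02g32590), of the heat shock factor class, had 189 against 543. Of 16 genes with that description, 1 was called higher and 1 lower. The assumed variation of 0.2 left 0 calls in the auxin, cytokinin and nitrogen lists, and the call of LOC_Os02g32590 was lost too.

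Transporters and aquaporins had 9 of 500 genes called higher and 10 lower, or 1.80% and 2.00%, against 2.88% and 1.07% over all genes. An amino acid transporter (LOC_Os07g04180) had 192 tags in SY63 against 28 in ZS97, and an aquaporin (LOC_Os04g16450), a water channel, had 492 against 210. Those called lower included a CorA-like magnesium transporter (LOC_Os01g64890) with 72 against 200. Also lower were both metal cation transporters of the calls, LOC_Os07g12890 with 76 against 197 and LOC_Os06g37010 with 25 against 75.

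Several large differences lay in single members of abundant families. A rubisco small chain gene (LOC_Os12g17600), for the carbon-fixing enzyme, had 38549 tags in SY63 and 163 in ZS97, with 53220 in MH63. The 4 small chain genes together reached 46442 TPM in SY63 and 41191 TPM in ZS97, and the main copy LOC_Os12g19381 had 153076 tags in SY63 and 172518 in ZS97. Metallothioneins bind metals: the 3B gene LOC_Os05g11320 had 2002 tags in SY63 and 7753 in ZS97, with 0 in MH63, while LOC_Os11g47809 had 399 in SY63 and 37 in ZS97, with 1444 in MH63. For both metallothioneins and for LOC_Os12g17600, the SY63 count lay between the counts of its parents. Sucrose synthase LOC_Os03g28330, which splits sucrose for growth and wall synthesis, had 2460 tags in SY63 against 838 in ZS97.

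Other functions held few calls, to be read beside 2.88% called higher and 1.07% lower over all genes. Photosynthesis genes, which mark green leaf, included 0 calls among 17 light-harvesting proteins. There were 1 higher and 1 lower (2.70% each) among 37 photosystem and electron transport proteins, and 1 higher (3.85%) among 26 Calvin cycle enzymes. In lists this small, such counts lie near the shares over all genes. Their sums were 14174, 36737 and 51255 TPM in SY63 against 14796, 38379 and 46468 TPM in ZS97. Among 14 tetrapyrrole genes, for chlorophyll synthesis, 13 had log2 ratios below 0 with a median of -0.31, and 0 were called, again near those shares. Respiratory chain genes had 0 of 72 called, translation factors 0 of 74, RING zinc finger proteins 0 of 244, cytosolic ribosomal proteins 1 of 118 and pentatricopeptide repeat proteins 1 of 298. The root marker silicon channel gene (LOC_Os02g51110) had 67 tags in SY63 and 66 in ZS97. The other 2 root markers set for this check had no entry in the gene counts, so the check rests on 1 gene.

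Genes with no tag in 1 of the libraries were unequally divided. Of the higher calls, 110 had 0 tags in ZS97, with 15 to 251 tags in SY63 (median 22), and 4 of the lower calls had 0 tags in SY63, with 14 to 19 in ZS97. In MH63, 72 of the 110 had at least 10 tags and 13 had 0. A transcript whose CATG site or tag differs from the annotated one by more than 1 mismatch is not counted, whatever its level. How far this holds for genes with 0 or few tags in ZS97, such as LOC_Os12g17600, was not tested, so their fold values describe counted tags. The gene with the most tags was LOC_Os02g27594, an expressed protein of no named function, with 251 in SY63 and 0 in ZS97, at least 85.4-fold higher, and 715 in MH63. A 40S ribosomal protein S27 gene (LOC_Os02g27769) had 183 against 0, with 488 in MH63, and the helix-loop-helix gene LOC_Os01g72370 had 123 against 0, with 81 in MH63. On the lower side, an ankyrin repeat gene (LOC_Os02g29040) had 0 tags in SY63 and 19 in ZS97, at least 6.21-fold lower. With an assumed coefficient of variation of 0.4, 11 genes stayed called, all higher, among them LOC_Os02g27594, LOC_Os03g52860, LOC_Os07g43570 and LOC_Os12g17600.

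A second table placed tags on the genome without reference to genes, and listed tags seen in all 5 libraries. Over its 6812 tags with a single place, 36 were called higher in SY63 (0.528%) and 44 lower (0.646%), and the median log2 ratio was -0.11. From the tags without a mismatch, the 4 called tags with the widest ratios in each direction are shown because a tag is the measured molecule itself; capitals mark the CATG site that the enzyme NlaIII cuts, and the 17 bases after it identify the transcript. Positions are as deposited. The study's methods name the cDNA set of an MSU pseudomolecule release for the gene counts, and the release behind these positions is not given in the sources used here.
Higher, chromosome 1, position 31765584, plus strand: CATGgcggcgtcgaccaaggc
Higher, chromosome 2, position 18364473, plus strand: CATGctgttcagtagaactag
Higher, chromosome 12, position 835441, minus strand: CATGatggtgctgagattata
Higher, chromosome 6, position 16224712, plus strand: CATGgctcacaatgcaaatca
Lower, chromosome 5, position 11260946, minus strand: CATGacaacttgatgaggaca
Lower, chromosome 7, position 22719552, minus strand: CATGatacacgtacactggga
Lower, chromosome 11, position 28409830, plus strand: CATGcccagctatggcttggg
Lower, chromosome 9, position 20724356, minus strand: CATGttattcaaatggtttca
The chromosome 1 tag had 158 copies in SY63 against 11 in ZS97 (log2 ratio 3.87), and the chromosome 6 tag had 50 against 6, with 204 in MH63. The chromosome 5 tag had 3 copies in SY63 against 26 in ZS97 (log2 ratio -3.09, interval -5.45 to -1.38). The chromosome 11 tag had 122 against 884, with 284 in MH63, 571 in FU and 103 in FR. The chromosome 2 and chromosome 12 tags had 24 and 42 copies in SY63 against 2 and 5 in ZS97, and the chromosome 7 and chromosome 9 tags had 6 and 5 against 46 and 35. Tags were not assigned to genes by position here.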

How the data were processed

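Seedling mRNA was cut with NlaIII and MmeI, and 21-base tags were sequenced on an Illumina instrument by a service provider. The authors deposited counts of unambiguous clean tags per gene, matched to annotated rice genes with at most 1 mismatch, and the deposited TPM values are those counts scaled to the clean tags of the library, with 0 written as 0.01. The aligner is not given in the sources used here. A transcript whose site or tag differs from the annotated one by more than this is not counted, and the effect was not tested. The authors' own ratios, p-values and false discovery rates were not used, nor were their filtered tables. Clean tag totals were recovered from the counts and TPM values.

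Counts were compared with a 2-sided Audic and Claverie test and Benjamini-Hochberg adjustment over 20783 genes (scipy 1.17.1). With 1 library per genotype there was no residual spread for edgeR's quasi-likelihood fit, and no p-value is printed. Alternatives used edgeR 4.0.16 (TMM, exact test with an assumed coefficient of variation) and DESeq2 1.42.0 (size factors). The calling and scaling steps were tested on simulated data. Genes were grouped into 58 lists by words of their descriptions, with list medians over genes of at least 10 tags in 1 library. Members and lists were chosen with earlier results of these data known. Named genes came from a rule: OsHDT1, called clock genes, the 10 largest ratios and TPM differences per direction, the 5 largest counts against 0, the leading called genes of each list, and root markers. Genes named beyond it were chosen after their values were seen. Smaller families were also grouped after the data were seen.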

Additional observations from a re-analysis of the deposited data

How the results depend on the processing

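Scaling by tags on genes, by TMM or by DESeq2's size factors gave log2 ratios that fell by 0.01 to 0.03, with 569 to 592 higher and 229 to 245 lower calls, and reversed no called gene among the 161 named; 4 of them lost their call with DESeq2's size factors. A filter at 20 tags, Fisher's exact test and 1 added to every TPM kept both counts within 1.5 times. A false discovery rate of 0.05 gave 1148 higher and 537 lower calls (68.1% higher), and a log2 threshold of 2 gave 313 and 37 (89.4% higher). With an assumed coefficient of variation of 0.2, 128 higher and 4 lower calls were left (97.0% higher), and with 0.4 there were 11 and 0 (100% higher); the number of calls fell by over 1.5 times in 47 of 58 lists at 0.2. Scaling moved no list median by 0.1 or more, while keeping members with at least 50 tags moved 14 of 58 by that much and gave 7 the other sign, among them receptor-like kinases (-0.03, against 0.17). No paired analysis was possible because each genotype had 1 library. Depth limits the genes with under 20 tags, where 40 of 5369 genes were called higher and 4 lower.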

Other observations

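Genes with no named function were called at about the rate of all genes. Of 3991 expressed proteins, 112 were called higher in SY63 and 39 lower (2.81% and 0.977%), against 2.88% and 1.07% over all genes. One of them, LOC_Os04g23140, had 579 tags in SY63 and 3 in ZS97 (log2 ratio 7.62, counting interval 6.07 to 9.90), with 679 in MH63. Retrotransposon proteins had 9 of 384 called higher and 3 lower, and DNA transposon proteins had 12 of 252 called higher and 4 lower.

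The calls lay on all 12 chromosomes named in the locus identifiers. The share called higher ran between 1.85% on chromosome 2 and 3.40% on chromosome 12, and the share called lower between 0.694% on chromosome 7 and 1.43% on chromosome 9. Neighbouring genes with a tag were called in the same direction in 25 runs of 2 and in 1 run of 3. How many such runs the shares over all genes would give was not worked out, so no clustering is read from this count. The run of 3 held the histone H3 genes LOC_Os06g06460 and LOC_Os06g06510 and, between them, a U-box heat shock gene (LOC_Os06g06490) with 190 tags in SY63 against 61 in ZS97.

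Of 262 descriptions shared by at least 10 genes, 126 held no called gene, 92 had more higher than lower calls and 36 had more lower than higher. Growth-regulating factors, a plant family of leaf growth regulators, had 2 of 4 genes called higher, among them LOC_Os04g51190 with 87 tags in SY63 against 36 in ZS97. Fasciclin domain genes, for cell surface proteins, had 2 of 21 called higher, and LOC_Os01g06580 had 257 tags in SY63 against 79 in ZS97.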
